A study of Mus musculus with 6 samples.

Results

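The insulin signalling and FOXO genes described here are 10 of the 23284 genes counted in the livers: Insr, Irs1, Irs2, Pik3r1, Akt1, Akt2, Foxo1, Foxo3, Trib1 and Sik1. They were chosen by name, as the receptor, its substrates, PI3K, AKT, FOXO and related genes, and all 10 passed the filter on low counts. Liver RNA of C57BL/6 mice, 8 weeks old and according to the methods male, was sequenced as paired-end reads of 100 bases. All the mice were fasted overnight and kept fasting for another 6 h, during which 3 had received vehicle and 3 had received FGF19 at 1 mg/kg. FGF19 is the human counterpart of the mouse gut hormone FGF15, so the treated mice carried a human protein beside their own hormone. Levels are given as CPM, the counts of a gene relative to the TMM-scaled size of its library, and changes as log2 fold changes of FGF19 against Vehicle. Each library is 1 mouse.

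In the fed state insulin binds its receptor on hepatocytes, which phosphorylates the IRS proteins. These recruit PI3K, whose lipid product brings AKT to the membrane. AKT phosphorylates the FOXO transcription factors and keeps them out of the nucleus. During fasting FOXO1 is nuclear and drives genes of glucose output, and it also raises transcription of Irs2 and Insr, so that the fasted liver becomes more sensitive to the next meal. FGF15 and FGF19 are known to bring about insulin-like responses in liver without insulin.

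After FGF19 treatment 1 member rose, none fell and 9 did not pass the test. The gene that rose was Trib1, a Tribbles pseudokinase that brings the ubiquitin ligase COP1 to the transcription factor C/EBPα. With edgeR's quasi-likelihood test and an adjusted p under 0.05, 4.56% of the 12559 genes tested were called higher and 2.84% lower, and with 10 members a single gene moves the share by 10 percentage points, so these counts do not set the members apart from the other genes. The methods state a threshold of p under 0.01 without naming an adjustment, and with it applied to the unadjusted p the members' counts were again 1 and 0, where 6.20% of the genes tested were higher and 4.98% lower. At an unadjusted p under 0.05 there were also 1 and 0, beside 11.6% and 11.3% of the genes tested. Trib1 was the only member whose groups did not overlap, beside 14.5% of the genes tested with every FGF19-treated mouse above the vehicle range and 13.8% with every one below. The median log2 fold change was 0.03 over the members and 0.00 over the genes tested.

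The total count of a library was between 18994654 and 22920056. A gene without a read could still have up to 3, which is 0.136 to 0.159 CPM depending on the library and covers counting error only. Mates were counted as separate reads, so reads are not independent and this floor may be too low. FGF19 mouse 3 stood apart from the other FGF19-treated mice by gene length. Against their mean, its log2 CPM was higher by a median of 0.18 in the 3742 genes with at most 2000 bases of exon and lower by a median of -0.20 in the 3698 genes with over 4000 bases. With each other mouse set against the rest of its group in the same way, the long genes had medians of 0.11 and 0.12 in FGF19 mice 1 and 2 and between -0.05 and 0.03 in the vehicle-treated mice. The values of FGF19 mice 1 and 2 are not separate observations, since a low FGF19 mouse 3 raises both. Since 7 of the 10 members have over 4000 bases of exon, results that rest on this mouse are given with and without it. Of the fixed marker lists, the 6 hepatocyte markers summed to between 93000 and 97400 CPM with vehicle and between 85900 and 96800 CPM with FGF19. The 4 neutrophil markers listed in the files summed to between 0.62 and 1.64 CPM and between 3.44 and 4.78 CPM, the 5 stellate cell markers to between 82.7 and 98.9 CPM and between 60.4 and 76.1 CPM, and the 4 adipocyte markers to between 9.91 and 22.7 CPM and between 22.4 and 34.0 CPM, with Lep at 0 in every library. The 4 pancreatic acinar markers summed to between 0.191 and 0.546 CPM and between 0.634 and 1.10 CPM, with Ctrb1 at 0. The part of these cells in the results below was not tested, and in bulk tissue fewer cells of a type and less RNA per cell cannot be told apart.

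The promoters of Irs1 and Irs2 are shown because these substrates carry the signal from the same receptor and because Irs2 was the most variable member after FGF19. RefSeq windows of 250 bases before the start site were given for 7 of the 10 members, on build GRCm38.p6. Insr, Trib1 and Sik1 had no entry. Both strands were searched for TGTTTAC (the FOXO binding element), TGTTTTG (the core of the insulin response sequence, also bound by FOXO1), TGACGTCA (the cAMP response element), TTCNNNGAA (a STAT site) and CACGTG (an E-box). Capitals mark the matches. Irs1 lies at chr1:82291440-82291689 and Irs2 at chr8:11008930-11009179, both on the minus strand.
Irs1: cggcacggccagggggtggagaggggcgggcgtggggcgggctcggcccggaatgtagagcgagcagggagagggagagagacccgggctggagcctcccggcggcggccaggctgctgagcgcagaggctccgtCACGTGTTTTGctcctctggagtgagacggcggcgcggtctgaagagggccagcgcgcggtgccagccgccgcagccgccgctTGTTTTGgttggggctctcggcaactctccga
Irs2: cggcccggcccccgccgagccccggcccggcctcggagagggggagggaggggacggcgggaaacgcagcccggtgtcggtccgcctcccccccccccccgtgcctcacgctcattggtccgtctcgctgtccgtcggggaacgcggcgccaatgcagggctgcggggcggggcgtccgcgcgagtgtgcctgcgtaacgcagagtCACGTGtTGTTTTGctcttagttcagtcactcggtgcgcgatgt

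In Irs1 an E-box began 115 bases before the start site and overlapped a TGTTTTG by 2 bases, and a second TGTTTTG began 32 bases before the start site. In Irs2 an E-box began 44 bases before the start site, with 1 base between it and a TGTTTTG. An E-box was present in 6.02% of the 32851 windows of all genes and TGTTTTG in 5.56%. An E-box and a TGTTTTG beginning within 10 bases of each other, a distance chosen after these windows had been seen, were present in 7 windows, or 0.0213%, of 7 genes, Irs1 and Irs2 among them. TGTTTAC, present in 3.17% of windows, was found in 1 window of Akt1, and TTCNNNGAA, present in 7.02%, in 1 window of Akt2. TGACGTCA was present in 1.55% of windows and in none of the members' windows. The windows of Foxo1, Foxo3 and Pik3r1 held none of the first 5 motifs listed. TGACG, present in 17.8% of windows, was found in windows of Irs1, Pik3r1, Akt2 and Foxo3. GGGCGG, present in 32.7%, was found in at least 1 window of every member that had an entry. A match describes letters and not a bound site.

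At the receptor, Insr was the member with the most reads. It lies on chromosome 8 of mm9 from 3150922 to 3279617, with 21 exons. It was at 145, 138 and 156 CPM in vehicle mice 1, 2 and 3 and at 157, 140 and 109 CPM in FGF19 mice 1, 2 and 3. The groups overlapped, and FGF19 mouse 3 was the lowest of the 6. Its log2 fold change was -0.11 with a 95% interval from -0.40 to 0.17, so a change of the receptor mRNA beyond a fold of 0.757 or 1.13 lay outside the interval. Without FGF19 mouse 3 the value was 0.02.

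Of the substrates, Irs1 on chromosome 1 from 82229680 to 82288014 was at 29.3, 16.2 and 19.4 CPM with vehicle and at 24.2, 22.0 and 18.8 CPM with FGF19. All 3 FGF19-treated mice lay inside the vehicle range. Its log2 fold change was 0.00 (95% interval from -0.45 to 0.45). Irs2, the substrate that fasting raises in liver, lies on chromosome 8 from 10986964 to 11008430. It was at 13.4, 11.4 and 13.6 CPM with vehicle and at 17.3, 11.5 and 5.52 CPM with FGF19, so the highest and the lowest level of the 6 mice were both in the FGF19 group. The coefficient of variation was 9.16% with vehicle and 51.4% with FGF19 (n = 3 each). For Irs2 the log2 fold change was -0.17 (95% interval from -0.88 to 0.55), and without FGF19 mouse 3 it was 0.17. The Irs2 counts ran from 122 to 371 reads per library. Its exons share 162 of 4012 bases with 9530052E02Rik on the opposite strand, a gene with at most 1 read in any library. The counting did not use strand and by its settings assigned no read that overlapped exons of 2 genes.

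Pik3r1 encodes the regulatory subunit p85α of PI3K, which binds phosphorylated IRS proteins. On chromosome 13 from 102450718 to 102538172, it was at 69.1, 49.0 and 44.3 CPM with vehicle and at 41.7, 53.6 and 47.6 CPM with FGF19. Vehicle mouse 1 was the highest, and the other 5 lay between 41.7 and 53.6 CPM. The log2 fold change of -0.19 (95% interval from -0.55 to 0.18) became 0.03 without vehicle mouse 1.

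The AKT kinases were the steadiest members. Akt1, on chromosome 12 from 113892032 to 113912487, was at 66.0, 69.2 and 66.9 CPM with vehicle and at 68.6, 62.8 and 71.9 CPM with FGF19. Akt2, the main AKT of insulin action in liver, lies on chromosome 7 from 28376579 to 28424472 and was at 87.7, 81.2 and 81.5 CPM with vehicle and at 88.6, 85.1 and 87.0 CPM with FGF19. The groups overlapped for both. Log2 fold changes were 0.01 for Akt1 (95% interval from -0.18 to 0.20) and 0.06 for Akt2 (95% interval from -0.12 to 0.24), the narrowest intervals of the 10. The biological coefficient of variation that edgeR fitted was 0.0899 for Akt1 and 0.0872 for Akt2, where the median of the genes tested was 0.119 and Irs2 and Sik1 reached 0.271.

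Foxo1, the main FOXO factor of the insulin response in liver, lies on chromosome 3 from 52072259 to 52154031. It was at 56.5, 49.4 and 42.0 CPM with vehicle and at 61.1, 73.4 and 41.6 CPM with FGF19. FGF19 mice 1 and 2 were above every vehicle-treated mouse and FGF19 mouse 3 was below them. Over all the mice Foxo1 had a log2 fold change of 0.25 (95% interval from -0.18 to 0.68, adjusted p = 0.485, edgeR). Without FGF19 mouse 3 this was 0.45 (adjusted p = 0.0517, edgeR), which did not pass the test either, and without FGF19 mouse 2 it was 0.07 (adjusted p = 0.90, edgeR). Foxo3, on chromosome 10 from 41905592 to 41996548, followed the same order within the FGF19 group, at 15.2, 15.9 and 6.88 CPM, and was at 9.77, 12.6 and 14.0 CPM with vehicle. Its log2 fold change was 0.06 (95% interval from -0.57 to 0.69) and 0.36 without FGF19 mouse 3 (adjusted p = 0.149, edgeR).

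**Figure D1:**
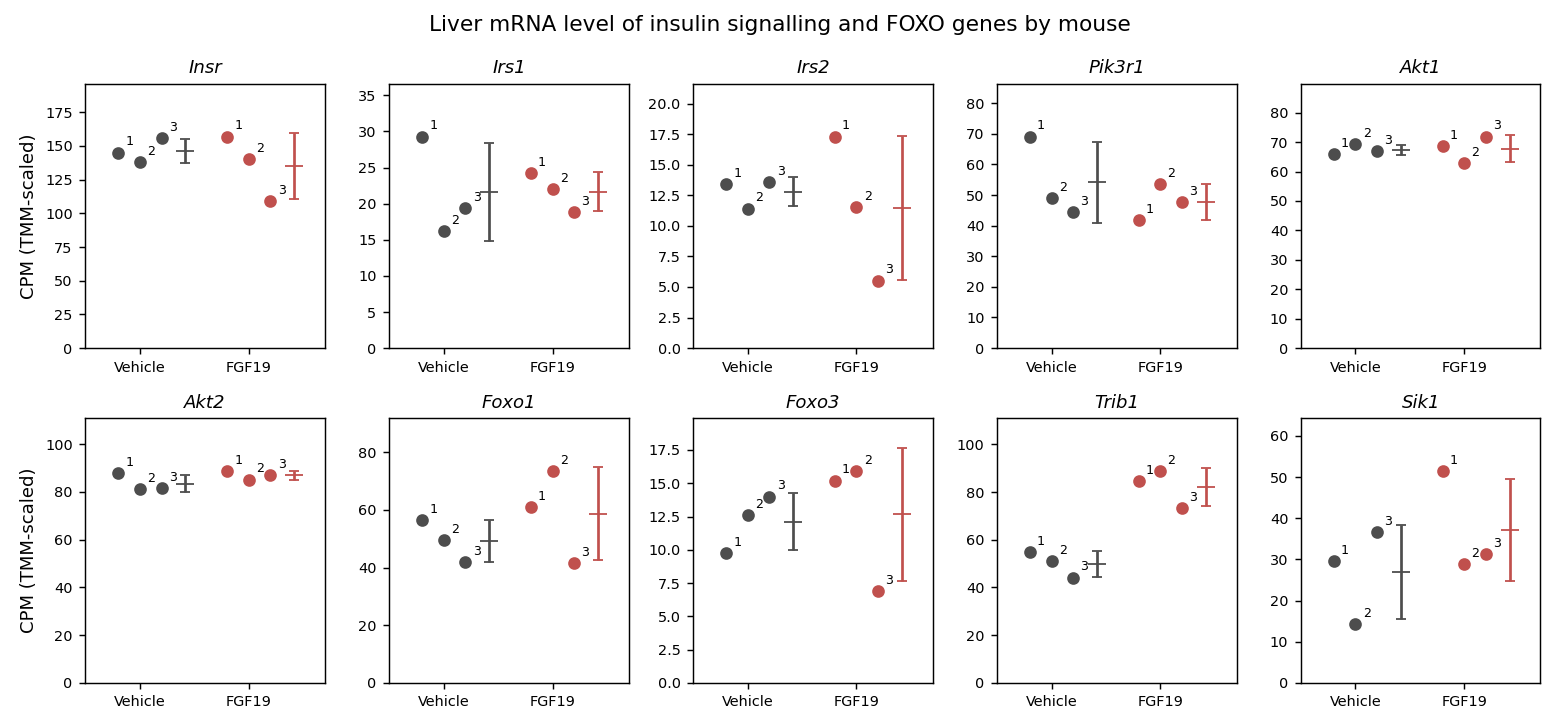
TMM-scaled CPM (y axes, from 0) of the 10 members in each mouse, with the mouse number beside each point and the mean ± SD (n = 3) as a bar to the right of each group. Trib1 is the only panel in which the groups separate, and FGF19 mouse 3 is the lowest point for Insr, Irs2, Foxo1 and Foxo3.

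Trib1 lies on chromosome 15 from 59480209 to 59488654 and has 3 exons. It was at 54.7, 50.9 and 44.1 CPM in vehicle mice 1, 2 and 3 and at 84.7, 88.7 and 73.4 CPM in FGF19 mice 1, 2 and 3. The lowest FGF19-treated mouse was thus above the highest vehicle-treated mouse. Mean levels were 49.9 ± 5.34 CPM with vehicle and 82.3 ± 7.93 CPM with FGF19 (SD, n = 3 mice each), a 1.65-fold rise. On the log2 scale the rise was 0.72, with a standard error of 0.110 and a 95% interval from 0.48 to 0.97. Its p, adjusted by the Benjamini-Hochberg method over the 12559 genes that edgeR tested, was 0.00497. Without FGF19 mouse 3 the rise was 0.80. The summed neutrophil and pancreatic acinar markers were also higher, and the stellate cell markers lower, in each FGF19-treated mouse than in any vehicle-treated mouse. Only 1 gene of the neutrophil list, S100a9, was tested. The sums of the other lists overlapped, those of Kupffer cells included (146 to 181 CPM with vehicle and 146 to 172 CPM with FGF19). The part of any of these cells in this result was not tested.

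Sik1, a salt-inducible kinase that cAMP signalling induces and that restrains the CREB coactivators CRTC, lies on chromosome 17 from 31981195 to 31992737. It was at 29.5, 14.3 and 36.7 CPM with vehicle and at 51.4, 28.9 and 31.3 CPM with FGF19. Mice within each group differed widely, and the FGF19 range began inside the vehicle range. For Sik1 the log2 fold change was 0.47 (95% interval from -0.24 to 1.18, adjusted p = 0.424, edgeR), which leaves room for a fold between 0.849 and 2.26. Single mice moved it widely, to 0.17 without vehicle mouse 2 or FGF19 mouse 1 and to 0.76 without vehicle mouse 3.

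**Figure D2:**
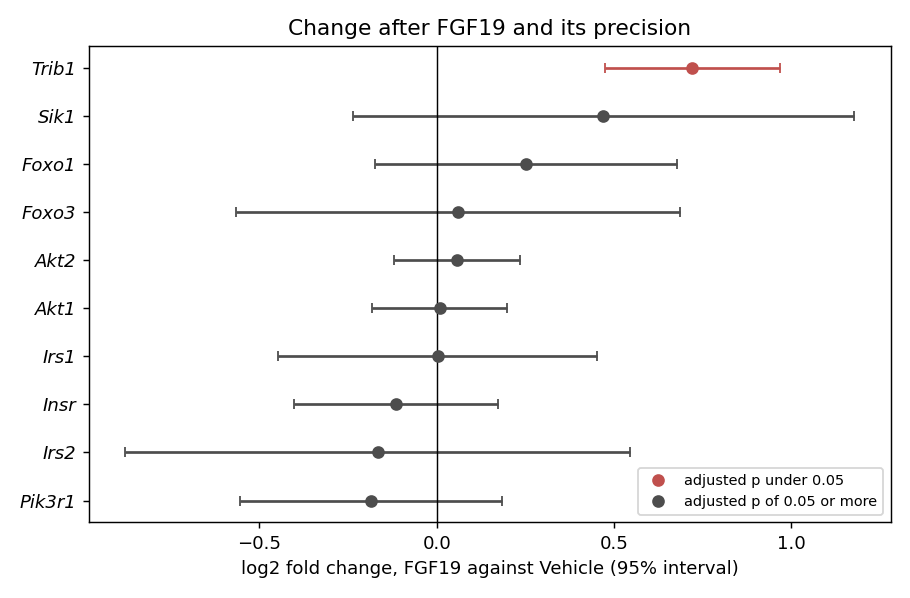
Log2 fold change of FGF19 against Vehicle (x axis) for each member, with its 95% interval from edgeR's quasi-likelihood fit of 3 against 3 mice. The interval of Trib1 lies above 0, and those of the other 9 include 0, from the narrow ones of Akt1 and Akt2 to the wide one of Irs2.

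Per length, as CPM divided by exon length in kilobases (RPKM), Akt2 and Akt1 were the most abundant members, with means over the 6 mice of 26.3 and 25.1 RPKM. Their ranges, from 25.1 to 27.3 and from 23.3 to 26.7 RPKM, overlapped. Trib1 and Insr came next. With vehicle Trib1 was at 12.4 ± 1.33 RPKM and Insr at 15.6 ± 0.927 RPKM, and with FGF19 Trib1 was at 20.4 ± 1.97 RPKM and Insr at 14.4 ± 2.59 RPKM (SD, n = 3 each), so the order of these 2 genes was not the same in both groups. Foxo1, Sik1 and Pik3r1 had means of 9.73, 7.09 and 6.90 RPKM with overlapping ranges, and Foxo3, Irs2 and Irs1 were the lowest at 4.29, 3.02 and 2.36 RPKM, also with overlapping ranges. These levels depend on the exon lengths in the count files. In the GENCODE annotation of the same build the merged exons of Foxo3, Akt2, Akt1 and Trib1 are 2.49, 2.20, 1.52 and 1.42 times as long, and those of the other 6 members are between 0.998 and 1.03 times as long. The order of the members with longer exons therefore depends on the annotation. With those lengths the mean of Trib1 with FGF19 would stay above that of Insr, but by less.

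The ratio of paired members needs no scaling between libraries. Its per-length level rests on the exon lengths in the count files, which for Foxo3 to Foxo1 and Akt2 to Akt1 differ from GENCODE as given above, while the log2 difference between the groups does not depend on length. The per-length ratio of Irs2 to Irs1 was 1.05, 1.62 and 1.59 in the vehicle-treated mice and 1.63, 1.19 and 0.671 in the FGF19-treated mice, so Irs1 was the more abundant substrate only in FGF19 mouse 3. The log2 ratio differed by -0.35 between the groups and by 0.00 without this mouse. The ratio of Akt2 to Akt1 was between 0.975 and 1.13 in the 6 mice, and its log2 value differed by 0.05 between the groups. The ratio of Foxo3 to Foxo1 was between 0.318 and 0.642, with a log2 difference of -0.24 that ran from -0.49 without vehicle mouse 1 to -0.02 without vehicle mouse 3. The 3 ratios had a two-sided exact permutation p of 0.7, 0.5 and 0.4, each 0.7 after adjustment over the 3, where 3 mice against 3 cannot go below 0.1.

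The low levels in FGF19 mouse 3 were shared by part of the members. It was the lowest of the 6 mice for 4 of the 10, where it was the lowest for 20.8% of the genes tested and for 39.5% of those with over 4000 bases of exon. Against the mean of FGF19 mice 1 and 2 its log2 CPM differed by -1.34 for Irs2, -1.17 for Foxo3, -0.69 for Foxo1 and -0.44 for Insr. For Akt1, Akt2 and Pik3r1 the difference was 0.13, 0.00 and 0.01. Among genes of the same length class, the value of Irs2 was at percentile 0.676, that of Foxo3 at 1.27, that of Foxo1 at 8.82 and that of Insr at 23.6, and so Irs2 and Foxo3 were each near the lower end of their own class and Insr was not. Of the 10 genes listed as lowered by insulin through FOXO1 in liver, a list that holds Irs2 and Insr, 7 were lowest in this mouse, beside 34 of the 75 tested genes of the wider pathway lists described below, or 45.3%. These 7 were not all low for their length class, where Mttp was at percentile 48.8, Pck1 at 14.3 and Ppargc1a at 2.89. Igfbp1, a secreted binding protein of insulin-like growth factors that FOXO1 drives, was at 357, 321 and 136 CPM in the FGF19-treated mice and at 205, 158 and 231 CPM in the vehicle-treated mice. Its exon length is 1520 bases, in the length class that was higher in this mouse, and its percentile there was 0.347. Ppargc1a, the PGC-1α coactivator of FOXO1, was at 26.8, 18.3 and 11.1 CPM with FGF19 and between 11.6 and 16.2 CPM with vehicle. The part of gene length in these levels was not tested.

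**Figure D3:**
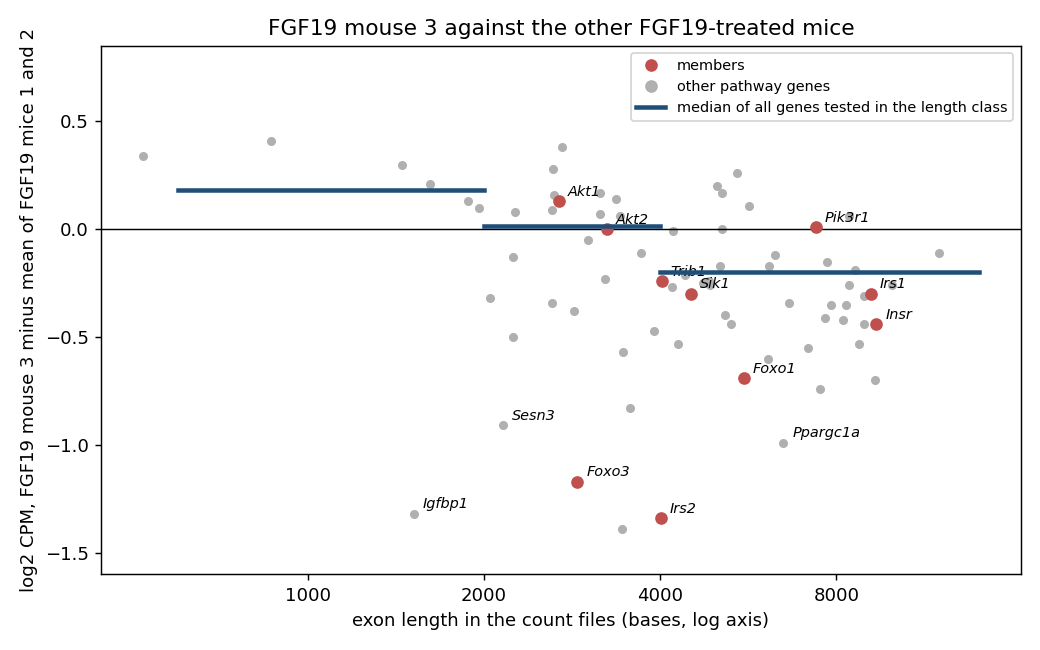
Difference in log2 CPM between FGF19 mouse 3 and the mean of FGF19 mice 1 and 2 (y axis) against exon length (x axis, log scale) for the members and the other tested pathway genes, with lines at the median of all genes tested in each of 3 length classes. The medians fall from 0.18 to -0.20 with length, and Irs2, Foxo3 and Igfbp1 lie far below the line of their class, as does the lowest point, Deptor, an mTOR inhibitor that is not on the FOXO1 list (-1.39, unlabelled).

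The wider pathway was read from 10 lists of genes by role, 81 symbols in all with the members included, of which 75 were tested. In edgeR's quasi-likelihood test 4 of the 75, or 5.33%, rose at an adjusted p under 0.05, and none fell, close to the background for rises. At an unadjusted p under 0.05 there were 6 higher and 4 lower of the 75, where 11.6% and 11.3% of all genes tested passed. The likelihood ratio and exact tests of edgeR each called 2 lower, Fasn and Srebf1, where they called 4.61% and 4.51% of all genes lower. The median log2 fold change of the 75 was -0.03. The lists of PI3K and PDK1 (7 tested), AKT and mTORC2 (8), AKT substrates (8), FOXO family and cofactors (7), negative regulators (12) and SIK and CRTC (8) held no called gene, and their medians lay between -0.10 and 0.12. The gene of lowest p in each was Pik3cd, Mlst8, Tsc2, Ppargc1a, Phlpp2 and Sik2, with log2 fold changes of 0.33, 0.32, -0.19, 0.41, 0.48 and 0.57. Mlst8, Tsc2, Sik2 and Srebf1 share exon positions with a gene on the opposite strand.

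Among the 10 tested receptors and adaptors 1 rose, Shc1, which couples receptor tyrosine kinases, those of insulin and of FGF included, to GRB2 and ERK. It was at 45.1, 45.4 and 48.8 CPM with vehicle and at 62.7, 69.4 and 61.1 CPM with FGF19, with no overlap. Shc1 rose by 0.47 on the log2 scale (SE 0.0881, adjusted p = 0.0132, edgeR). It did not pass the test without vehicle mouse 1, vehicle mouse 2 or FGF19 mouse 2 (adjusted p = 0.0561, 0.0514 and 0.0583, edgeR). Grb2 itself had a log2 fold change of 0.02.

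Of the 5 tested Tribbles genes and partners only Trib1 was called. Trib2 was between 1.06 and 2.10 CPM in the 6 mice. Trib3, the Tribbles protein known to bind AKT, was between 7.67 and 18.0 CPM with vehicle and between 12.1 and 15.3 CPM with FGF19. Rfwd2, the older symbol of Cop1, was at 26.4, 26.8 and 26.7 CPM with vehicle and at 23.8, 25.3 and 21.8 CPM with FGF19. Cebpa, which encodes the factor that the Trib1 complex marks for degradation, was at 472, 423 and 444 CPM with vehicle and at 368, 351 and 402 CPM with FGF19. Neither gene's groups overlapped, with FGF19 below, and neither passed the test over all mice (log2 fold changes of -0.17 and -0.26, adjusted p = 0.319 and 0.126, edgeR).

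Of the 10 genes that insulin lowers through FOXO1 in liver, 1 rose. This was Pdk4, which turns off pyruvate dehydrogenase during fasting. It was at 10.8, 12.6 and 12.1 CPM with vehicle and at 25.5, 20.1 and 15.2 CPM with FGF19, and the rise was 0.78 on the log2 scale (SE 0.178, adjusted p = 0.0292, edgeR). Without FGF19 mouse 3 Pdk4 was again higher, and without any other single mouse it did not pass the test (adjusted p from 0.0614 to 0.106, edgeR). Pck1 and G6pc, the enzymes of glucose output, overlapped between the groups, with log2 fold changes of 0.10 and -0.12. Igfbp1 had a log2 fold change of 0.45 (adjusted p = 0.417, edgeR). The list median was -0.01. Without FGF19 mouse 3, Igfbp1 and Ppargc1a were called higher (log2 fold changes of 0.78 and 0.68, adjusted p = 0.0105 and 0.0438, edgeR). So was Sik2 (0.81, adjusted p = 0.00825, edgeR), while Cebpa and Apoc3 were called lower. FGF19 mouse 3 was the lowest mouse for Igfbp1, Ppargc1a and Sik2, so leaving it out raises their values and narrows their spread. For these 3 genes this fit is no separate test of a rise. In the fit without FGF19 mouse 3, 7 of the pathway genes were higher and 2 lower, beside 8.00% and 7.30% of the genes tested. Without FGF19 mouse 1 the values of Igfbp1 and Ppargc1a were 0.21 and 0.06, and neither passed the test.

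Of the 4 tested genes that insulin raises in liver, Gm6484, the older symbol of Angptl8, rose. Angptl8 is a secreted inhibitor of lipoprotein lipase activity that feeding induces. It was at 12.3, 21.0 and 15.6 CPM with vehicle and at 34.2, 23.8 and 38.1 CPM with FGF19, which is a rise of 0.98 on the log2 scale (SE 0.213, adjusted p = 0.0254, edgeR). It did not pass without vehicle mouse 1, vehicle mouse 3 or FGF19 mouse 1 (adjusted p = 0.0773, 0.105 and 0.0819, edgeR). Fasn and Srebf1 had log2 fold changes of -0.76 and -0.74 (adjusted p = 0.0788 and 0.113, edgeR), and for both vehicle mouse 1 lay in the FGF19 range. Without vehicle mouse 1 both fell, by 1.02 and 1.00 on the log2 scale (adjusted p = 0.00302 and 0.0146, edgeR), where 1.32% of the genes tested were lower. With any other single mouse left out neither passed the test.

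**Figure D4:**
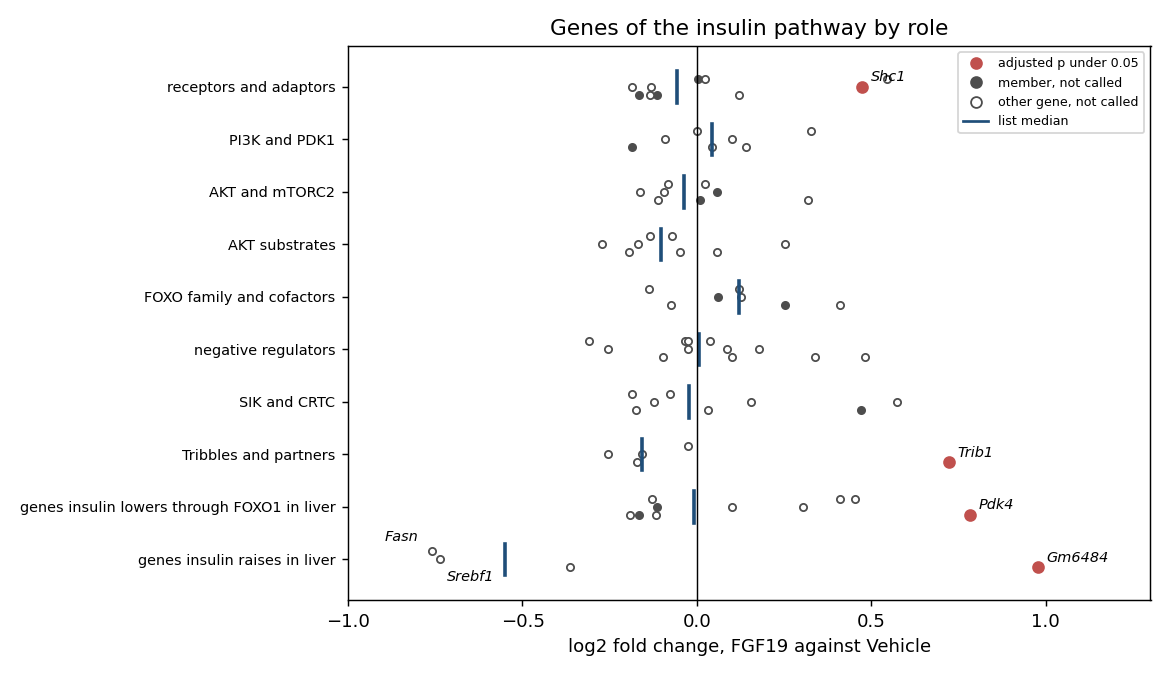
Log2 fold change of FGF19 against Vehicle (x axis) of the tested pathway genes, 1 row per list, with called genes in red, uncalled members filled, other uncalled genes open and the list median as a vertical line. The 4 called genes, Shc1, Trib1, Pdk4 and Gm6484, all lie to the right of 0, and genes on more than 1 list are drawn in each.

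The genes whose levels followed Trib1 most closely over the 6 libraries were Srprb, Dpp9 and Snd1, with Pearson r of 0.996, 0.994 and 0.993 on log2 CPM. They were taken from 7533 genes with a mean of at least 10 CPM, of which 182 had an r over 0.95. Each separated the groups as Trib1 did, and Srprb, for example, was between 21.9 and 25.4 CPM with vehicle and between 36.8 and 45.0 CPM with FGF19. Genes that separate the 2 groups rank high by this measure because Trib1 does, and r is given as a description over libraries that all these genes share.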

How the data were processed

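RNA-seq counts of 6 mouse livers, 3 per group, were used. Per the file headers the authors counted reads on exons of mm9 genes with featureCounts 1.5.2, without strand, with mates counted as separate reads and multi-mapped or ambiguous reads left out, so the deposited counts are raw. The submitters' processing notes name Trimmomatic 0.36 and STAR 2.5.3a, and the methods give another STAR version. The deposited table of the authors' own comparison (fold changes, p-values) was not used. Genes were filtered by filterByExpr, which kept 12559 of 23284, scaled by TMM, and tested with the quasi-likelihood test of edgeR 4.0.16 in R 4.3.3, with Benjamini-Hochberg adjustment. The methods name edgeR but not the kind of test. Intervals are 95% intervals from that fit. Log2 CPM used a prior count of 2. The pipeline was tested on simulated data. DESeq2 1.42.0 and limma 3.58.1 (voom), other scalings and filters, the replicate block and leaving out each library were the alternatives. Promoter sequences came from RefSeq. Named genes are all members, called pathway genes without overlap or else the list's gene of lowest p, and the 3 genes most like a called member. Other genes are named as known partners or targets. The members and lists were chosen with earlier results of these data known. The values of 1 gene of the pathway lists are not reported here.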

Additional observations from a re-analysis of the deposited data

How the results depend on the processing

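Trib1 was called higher under all 15 alternatives run, with log2 fold changes between 0.64 and 0.80 and adjusted p between 2.08e-06 and 0.0320, and no other member was called in any of them. Log2 fold changes near 0 changed sign: Irs1 was at -0.001 with DESeq2 or no TMM scaling, -0.002 with DESeq2's size factors and -0.003 without a filter, and Foxo3 at -0.019 with limma-voom. With each library left out, the ranges were -0.233 to 0.024 for Insr, -0.168 to 0.284 for Irs1, -0.590 to 0.170 for Irs2, -0.309 to 0.031 for Pik3r1, -0.032 to 0.068 for Akt1, -0.133 to 0.363 for Foxo3, 0.065 to 0.453 for Foxo1 and 0.166 to 0.764 for Sik1, and the Irs2 to Irs1 ratio ran from -0.638 to 0.001, where the highest Irs2 and ratio values are without FGF19 mouse 3. Of the pathway genes, between 1 (without vehicle mouse 1) and 7 (without FGF19 mouse 3) were higher and between 0 and 2 lower with a library left out, while the genes called over the whole table ran from 236 to 1015 higher and from 91 to 926 lower in the same fits. There were 1 lower, Fasn, with DESeq2, without a filter or at p under 0.01, and 2, Fasn and Srebf1, with the likelihood ratio or exact test, where, of all genes tested, 519 of 12559 genes were lower with DESeq2, 395 of 16890 without a filter, 626 at p under 0.01, and 579 and 566 with the latter tests. Trib1 was the only pathway gene called higher without vehicle mouse 1, where Fasn and Srebf1 were called lower. Shc1 lost its call in 4 of 15 alternatives, Pdk4 in 6 and Gm6484 in 3. With the replicate block 2 pathway genes were higher, Gm6484 and Trib1, and of all genes tested 370 genes were higher and 164 lower, against 573 and 357 without it. In their deviations from the group means, same-numbered mice correlated at -0.0313, -0.181 and -0.182, and mice of different numbers at between -0.128 and 0.23. Deviations within a group sum to 0, which ties these correlations together. They therefore do not settle whether the numbers pair the mice. The cause of these changes was not tested. Levels of Irs2 and Foxo3 rest on 122 to 371 reads per library and are the least precise for counting.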
